A study of Mus musculus with 12 samples.

Results

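Of 100354 stretches of open chromatin mapped across 6 mouse liver and blood myeloid populations, 1818 were present in recruited liver macrophages with high surface Ly6C (Ly6CHi-RM) and in none of the other 5 populations. They are 1.81% of all merged regions and 2.96% of the 61492 peaks of the Ly6CHi-RM list. The regions were selected on measured values: peaks of the 6 lists were merged wherever they shared at least 1 bp, and a merged region was kept when it held a Ly6CHi-RM peak and no peak of another list. Each held exactly 1 Ly6CHi-RM peak, 200 bp wide. Absence from the other lists is therefore how they were chosen and is not a result.

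The peaks come from ATAC-seq: a transposase cuts DNA where no nucleosome protects it, and the reads, or tags, pile up at open sites. All mice were C57BL/6J, and each of the 6 groups had 2 libraries (12 in all). Kupffer cells are the liver's own long-lived macrophages, and F4/80-Hi Tim4-Pos cells were sorted both after the control diet (KC-H) and after the NASH diet (KC-N), named for the fatty, inflamed liver of non-alcoholic steatohepatitis. The other 4 groups all came from mice on the NASH diet: KN-RM are F4/80-Hi Tim4-Neg Kupffer cells, Ly6CHi-RM and Ly6CLo-RM are Cd11b-Hi recruited macrophages split by their Ly6C level, and Blood-Ly6CHi-NASH are circulating Ly6C-Hi monocytes. The labels give neither the age nor the sex of the mice, and do not say whether the libraries of a group came from separate animals.

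Ly6C-high monocytes leave the bone marrow through CCR2, enter an injured liver and lose Ly6C as they mature into macrophages that can fill the Kupffer cell niche. Most of the enhancers a monocyte uses are already open when it arrives, held by lineage factors such as PU.1, C/EBP and RUNX. Signal-dependent factors, above all AP-1 (dimers of the Fos, Jun and Maf families) and NF-kB, then open further sites in an activated cell.

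Coordinates are those of the deposited lists, on mm10 (GRCm38). Sequence was at hand only for the 250 bases before listed transcription start sites (RefSeq, GRCm38.p6), and 41 of the 1818 regions shared at least 1 bp with such a stretch. For 24 genes the shared stretch was at least 100 bp. In 6 of these 24 promoters the 250 bases held the AP-1 motif TGANTCA. The shared bases of 5 of them are printed here to show the motif in its place, and were picked for holding it, which the other 18 promoters did not (5′ to 3′ on the strand of the gene, with matches to the AP-1 motif TGANTCA or the C/EBP motif TTGCNNAA in capitals). Olr1 encodes the oxidised-LDL receptor LOX-1, Olfr701 an olfactory receptor, and Ankrd22 an ankyrin-repeat protein.
Olr1: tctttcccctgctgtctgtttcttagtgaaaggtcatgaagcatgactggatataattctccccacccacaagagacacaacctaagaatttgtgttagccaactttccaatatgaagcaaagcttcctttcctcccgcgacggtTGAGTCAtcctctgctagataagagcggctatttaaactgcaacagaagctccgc
Ankrd22: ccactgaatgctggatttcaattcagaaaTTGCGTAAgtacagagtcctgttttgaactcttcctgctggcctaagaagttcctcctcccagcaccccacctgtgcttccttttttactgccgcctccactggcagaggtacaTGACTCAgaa
Olfr701: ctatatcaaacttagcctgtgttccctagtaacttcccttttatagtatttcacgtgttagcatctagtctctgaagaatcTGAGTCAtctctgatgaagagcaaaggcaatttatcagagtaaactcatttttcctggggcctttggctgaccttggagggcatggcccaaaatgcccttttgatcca
Gm11714: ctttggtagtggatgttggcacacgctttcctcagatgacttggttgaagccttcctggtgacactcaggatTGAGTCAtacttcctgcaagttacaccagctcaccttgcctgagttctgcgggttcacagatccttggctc
4930480C01Rik: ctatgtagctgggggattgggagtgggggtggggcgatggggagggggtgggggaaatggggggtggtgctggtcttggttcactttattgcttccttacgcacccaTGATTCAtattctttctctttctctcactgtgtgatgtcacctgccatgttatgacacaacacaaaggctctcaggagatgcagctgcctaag

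The Olr1 stretch is chr6:129507171-129507370 (minus strand) and the Ankrd22 stretch chr19:34166042-34166194 (minus strand). Those of Olfr701, Gm11714 and 4930480C01Rik are chr7:106813879-106814067, chr11:107428107-107428249 and chr5:65951140-65951339, all on the plus strand. The Ankrd22 promoter carried both motifs. The sixth AP-1 promoter was that of Sphk1, the kinase that makes sphingosine 1-phosphate. At Maff, which encodes a small Maf protein, the shared bases held a C/EBP match and no AP-1 match (chr15:79346484-79346620). At Clec4d, a C-type lectin receptor of monocytes and neutrophils, they held neither (chr6:123261981-123262106).
Maff: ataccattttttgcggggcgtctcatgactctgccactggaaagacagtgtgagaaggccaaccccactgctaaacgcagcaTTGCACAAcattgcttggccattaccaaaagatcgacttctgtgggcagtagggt
Clec4d: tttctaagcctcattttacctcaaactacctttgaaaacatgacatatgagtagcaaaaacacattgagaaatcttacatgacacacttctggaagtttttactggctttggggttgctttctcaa

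The AP-1 share of 25.0% (95% Wilson interval 12.0 to 44.9%, 6 of 24) compares with 3.27% (1.78 to 5.91%, 10 of 306) for promoters under the other Ly6CHi-RM peaks of similarly low score. All 32851 promoter stretches of the same length held it in 6.75% of cases. Promoters under regions of Ly6CLo-RM alone had 9.38% (4.37 to 19.0%, 6 of 64), and those under regions of blood monocytes alone 4.74% (2.51 to 8.76%, 9 of 190). In a split made after the values were seen, AP-1 matches fell mainly at promoters standing clear of the other lists: 5 of the 9 with no peak centre of another list within 1 kb held the motif, against 1 of the 15 with such a neighbour. The C/EBP motif was found in 3 of 24 promoters (12.5%) and in 9.56% of all promoter stretches. None of the 24 held the NF-kB motif GGGANTTCC, and the most frequent match was SP/KLF (GGGCGG), in 7 of 24 promoters (29.2%) and 32.7% of all stretches. GC content averaged 53.5% in the 24 promoters, 53.2% in all stretches and 57.0% in the 306 promoters of the low-scored peaks. The part of this difference in base content in the AP-1 shares was not tested. In all 19 motifs were searched on both strands; the longer MARE motif GCTGANTCA contains the AP-1 letters, and its 1 match is also an AP-1 match. A match describes letters, not a bound factor, and 24 promoters stand for only a small part of the 1818 regions.

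The regions were weak peaks. Their normalised tag count, the authors' own value per peak, had a minimum of 17.2, a median of 20.3 and a 95th percentile of 32.8, while the whole Ly6CHi-RM list had a minimum of 17.2 and a median of 46.4. Their median score was 25 against 46 for the list, which put the median region at percentile 10.4 of its own list. Of the 1818 regions, 1408 (77.4%) were in the lowest-scored 20% of the list, where they made up 11.4% of the peaks. Only 28 stood in the better-scored 50%, and 18 reached the median tag count of the list. Absence of a site from another population and a peak there below the threshold of that list cannot be told apart. In the plot of shares by score the fall is steep and without a break, from 892 of 6149 peaks (14.5%) in the lowest 10% to 2 of 6149 in the highest.

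**Figure D1:**
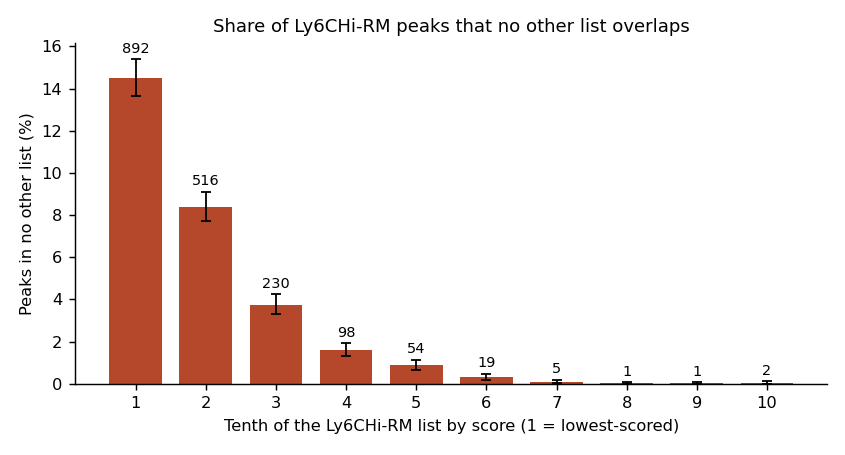
Share of Ly6CHi-RM peaks that no other list overlaps (y axis, %), in bins of 10% of the list ordered by score (x axis, 1 lowest). Bars carry 95% Wilson intervals (counting error only) and the number of regions, which falls from 892 in the lowest bin to 2 in the highest.

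Low scores were shared by the single-population regions of all 6 lists, since between 50.2% (Ly6CLo-RM) and 77.4% (Ly6CHi-RM) of them were in the lowest-scored 20% of their own list. Ly6CHi-RM had fewer such regions than the blood monocytes (9705, 13.9% of that list), control Kupffer cells (9871, 15.5%), Ly6CLo-RM (3948, 7.23%) or KC-N (2140, 4.23%), and more than KN-RM (263, 0.767%). With each group represented by 1 list made from both libraries, there is no spread between replicates against which to set these numbers. The count also rested on 2 of the other lists. Without the blood monocyte list it would be 7995, and without the Ly6CLo-RM list 3193, whereas leaving out KC-H, KC-N or KN-RM gave 2211, 1996 and 1850. At the border of the rule, 17 regions lay within 20 bp of a peak of another list (median tag count 20.8, median score 28), and 15 Ly6CHi-RM peaks missed selection through an overlap of 1 to 20 bp (22.4 and 29).

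Many regions lay close to a peak of at least 1 other list. The nearest peak centre of another list lay a median of 1797 bp away (quartiles 592 and 5534.5 bp, range 202 to 503558 bp). For 674 regions (37.1%, 95% interval 34.9 to 39.3%) it was within 1 kb, and 319 of these had peaks of all 5 other lists within that distance. The other 1144 regions had none within 1 kb, 284 had none within 10 kb and 32 none within 50 kb. The histogram of distances shows the regions next to the other lists merging into those that stand apart, and the bar chart beside it shows 0 and 5 neighbouring lists as the most frequent numbers.

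**Figure D2:**
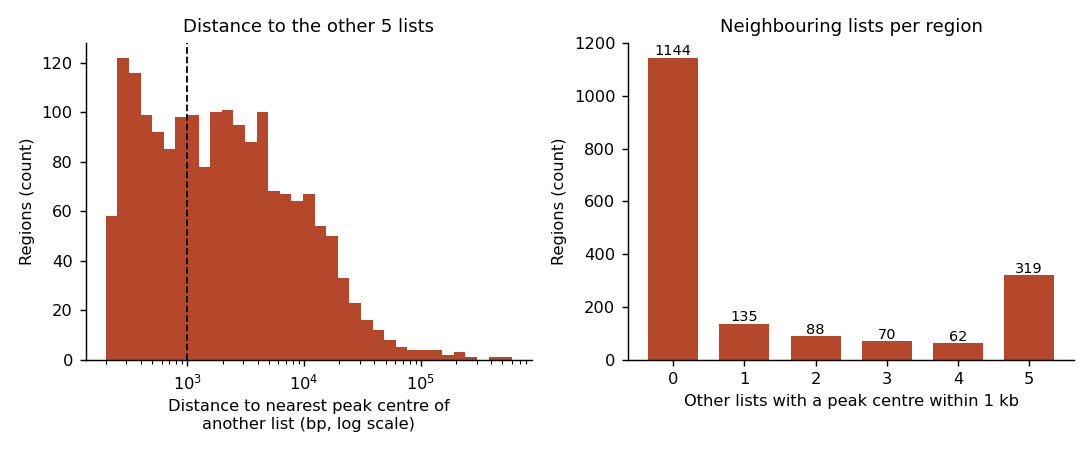
Left, distance from each of the 1818 regions to the nearest peak centre of another list (x axis, bp, log scale; dashed line at 1 kb) against the number of regions. Right, number of other lists with a peak centre within 1 kb: 1144 regions had none and 319 had all 5.

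Blood monocytes were the most frequent neighbour: 600 regions (33.0%) had a peak centre of that list within 1 kb, 525 (28.9%) one of Ly6CLo-RM, 441 (24.3%) one of KC-H, 438 (24.1%) one of KC-N and 360 (19.8%) one of KN-RM. Longer lists have more peaks to be near, and the KN-RM list is the shortest at 34293 peaks. The order resembles that of the other low-scored Ly6CHi-RM peaks at its ends. Of those 10890 peaks 78.1% were also in the blood monocyte list, 43.2% in KC-H, 43.0% in Ly6CLo-RM, 29.4% in KC-N and 13.3% in KN-RM.

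Most regions lay far from gene starts. The centre was within 1 kb of a listed start site in 174 of the 1818 (9.57%, 8.30 to 11.0%), against 12.8% (12.2 to 13.4%) of the other low-scored Ly6CHi-RM peaks and 25.4% of all its other peaks. Regions of other single lists had similar shares: 9.20% (8.64 to 9.79%) for blood monocytes alone and 10.0% (9.11 to 11.0%) for Ly6CLo-RM alone. Distance from the other lists went with distance from genes: the start-site share was 2.19% (1.48 to 3.21%) for the 1144 isolated regions and 22.1% (19.1 to 25.4%) for the 674 with a neighbour within 1 kb. A protein-coding gene contained the centre of 48.3% (46.0 to 50.6%) of the regions, fewer than the 55.1% (54.2 to 56.0%) of the other low-scored peaks. The share was 55.9% for regions of blood monocytes alone and 55.0% for those of Ly6CLo-RM alone. Whether a region inside a gene is exonic or intronic was not analysed here. By chromosome, the regions made up between 2.20% (chromosome 8) and 3.67% (chromosome 15) of the Ly6CHi-RM peaks on the autosomes and X, and 435 of them (23.9%) had another such region within 50 kb.

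The highest-scored regions stood mostly beside shared peaks, several of them at promoters. The highest score, 140, with a tag count of 207.8, belonged to a region over the start of Hexim1, the inhibitor of the elongation kinase P-TEFb (chr11:103116260-103116460). All 5 other lists had a peak centre within 1 kb of it, the nearest 274 bp away. Its 64 bases before the start site are rich in G.
Hexim1: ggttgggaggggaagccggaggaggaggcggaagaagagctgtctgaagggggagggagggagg

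The highest tag count, 219.3 at a score of 130, was 597 bp beyond the 5′ end of the listed gene span of Ints6, a subunit of the Integrator complex that processes nascent RNA (chr14:62761660-62761860). It too had all 5 other lists within 1 kb. Similar flanking peaks stood at Ppp6r3, a regulatory subunit of protein phosphatase 6 (97.9, score 92), Ypel5 (62.5, score 60) and Nrf1, a factor for nuclear-encoded mitochondrial genes (50.0, score 63), each within 0.5 kb of the start site. A region on the unplaced scaffold JH584304 (89.1, score 71) could not be assigned a gene, as the genes used here cover no such scaffold. Of the 10 highest-scored regions only that in Rgs9, a regulator of G-protein signalling, lay over 1 kb from the other lists. It had a tag count of 59.9 and a score of 62 (chr11:109264130-109264330, 3497 bp from the nearest other peak centre). A second Rgs9 region (38.0, score 41) began at position 109264497, just past the end of the first.

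Among the isolated regions the next highest scores came from a region near Pim3, a serine/threonine survival kinase (48.4, score 53), from 1 of 2 regions in Zcchc4 (47.4, score 53), and from regions near Slk (52.1, score 51), Cog6 (45.8, score 51) and Trib1 (37.0, score 49). Trib1 encodes a pseudokinase that targets C/EBP-alpha for degradation and is known for its part in macrophage differentiation. It had a second isolated region (30.2, score 40), both 2.80 kb or more from any other list. Gk5, Slain2, Vav3 and Wbp11 followed, with tag counts from 42.2 to 45.3.

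By position the regions were assigned to 1496 protein-coding genes, taking the gene that contained the centre or otherwise the nearest within 100 kb. These were 6.84% of all 21883 genes and 10.5% of the 14290 genes with any Ly6CHi-RM peak. Of the 1496 genes, 1304 had 1 region, 165 had 2, 20 had 3, 3 had 4 and 4 had 5. At 1 gene the regions were usually an addition to shared open sites: 55 genes had no peak of any other list and 98 had no other Ly6CHi-RM peak. At the 27 genes with 3 or more regions, the 92 regions were among 526 Ly6CHi-RM peaks. Ly6CHi-RM had the most peaks of the 6 lists at 22 of these genes, and at 3 when the regions themselves were left out. Part of the 22 is thus fixed by the selection. Among all 1496 genes with a region, Ly6CHi-RM had the most peaks at 512 (34.2%). Among the 14290 genes with any Ly6CHi-RM peak it did so at 755 (5.28%). These 14290 genes include the 1496, and the rule gives each of the 1496 at least 1 peak that only Ly6CHi-RM has. Part of this difference is thus also fixed by the selection.

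**Figure D3:**
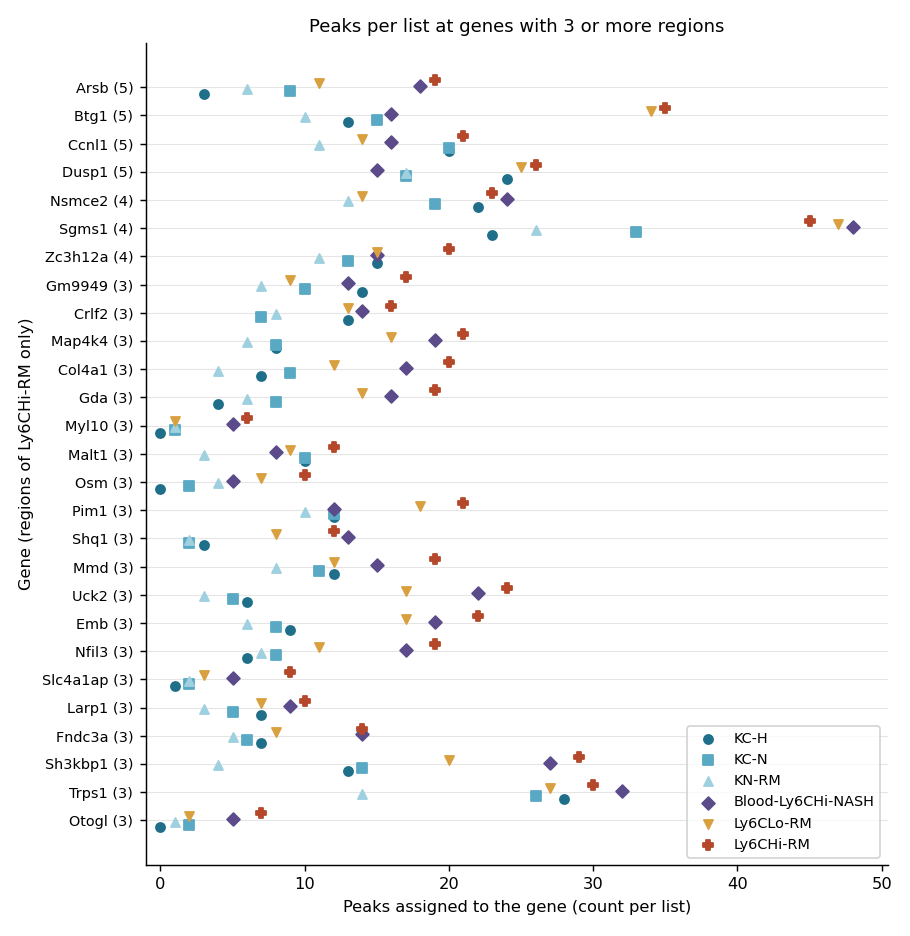
Peaks per list (x axis, count) at the 27 genes with 3 or more regions of Ly6CHi-RM alone (y axis, number of regions in brackets). The Ly6CHi-RM counts include the regions. Btg1 had 35 Ly6CHi-RM and 34 Ly6CLo-RM peaks but 10 to 16 in the other lists, while at Osm, Myl10 and Otogl KC-H had 0.

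Dusp1, the phosphatase that switches off p38 and JNK and is itself an early response gene, had the tightest group of 4 regions among the genes with 4 or more. Its 5 regions lay downstream of the gene at 11.9, 13.7, 14.9, 16.6 and 27.3 kb from the start site, with tag counts of 19.3, 19.8, 20.3, 19.8 and 18.2. The first 4 fell in 4.94 kb of chromosome 17 (26491775 to 26496714) in which no other list had a peak. Ly6CHi-RM had 21 further peaks at Dusp1, against 25 in Ly6CLo-RM, 24 in KC-H, 17 in KC-N and KN-RM and 15 in blood monocytes. All 5 regions had scores of 30 or less, so the group was made of weak peaks. When every list was shortened to its 34293 best-scored peaks, Dusp1, Btg1, Arsb, Sgms1 and Zc3h12a had 0 regions, and Ccnl1 and Nsmce2 had 1 each. None of the regions reported at these genes scored high enough to stay in the shortened list. Their loss thus follows from their low scores. The 1 region at Ccnl1 and at Nsmce2 was a different peak, no longer overlapped once the other lists were cut.

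Btg1, an anti-proliferative gene highly expressed in quiescent leukocytes, had its 5 regions 6.76 to 20.0 kb downstream of the start site. Their tag counts were 17.7 to 30.2. Here 4 of the 5 were within 0.5 kb of a peak centre of another list, and the stretch was also densely covered in Ly6CLo-RM. The maps of Dusp1 and Btg1, chosen after their values were seen, show these arrangements side by side.

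**Figure D4:**
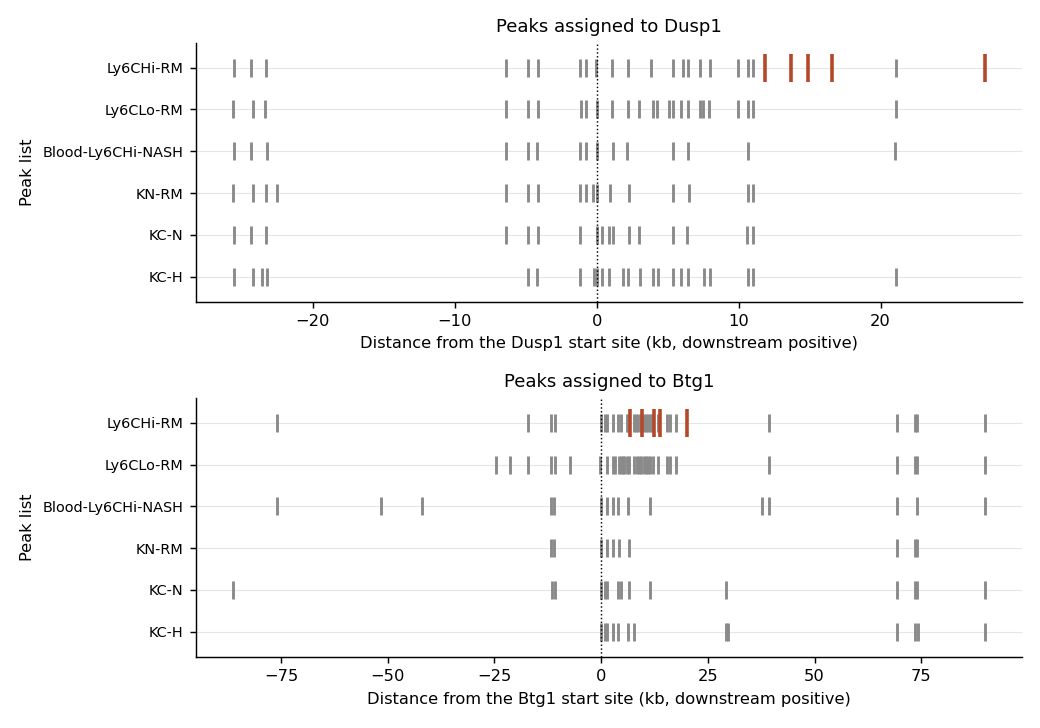
Peaks assigned to Dusp1 (top) and Btg1 (bottom) in each of the 6 lists (y axis) by distance from the start site (x axis, kb, downstream positive). Grey ticks are peaks, and the long red ticks in the Ly6CHi-RM row are regions of that list alone: 4 of those of Dusp1 lie at 11.9 to 16.6 kb, where the other rows are empty.

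The other genes with 4 or 5 regions had wider spacing. Arsb, the lysosomal arylsulfatase B, had 5 regions over 98.6 kb (tag counts 21.4 to 32.3). Besides these regions Ly6CHi-RM had 14 peaks at this gene and blood monocytes 18, against 11 for Ly6CLo-RM, 9 for KC-N, 6 for KN-RM and 3 for KC-H. Ccnl1, which encodes cyclin L1, had 5 over 73.3 kb (18.8 to 22.9). Zc3h12a, which encodes the RNase regnase-1 that degrades inflammatory mRNAs, had 4 over 78.6 kb. They lay 1.88 and 4.41 kb downstream of its start site and 13.8 and 74.0 kb upstream, and Ly6CHi-RM had 16 further peaks there against 11 to 15 in the other lists. Nsmce2 and Sgms1 had 4 regions each. Crlf2, the TSLP receptor chain, and the kinase gene Map4k4 had 3 each.

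Oncostatin M (Osm), an IL-6 family cytokine made by activated monocytes, had 3 regions with tag counts of 28.1, 20.3 and 19.8 (chr11:4229684-4229884, chr11:4230216-4230416 and chr11:4237169-4237369). Besides these, Osm had 7 peaks of Ly6CHi-RM and, in the other lists, 7 of Ly6CLo-RM, 5 of blood monocytes, 4 of KN-RM, 2 of KC-N and none of KC-H. All 3 regions were within 0.5 kb of a peak centre of blood monocytes or Ly6CLo-RM. Osm kept 1 region when gaps of up to 100 bp were merged. With lists of equal length it had 1, but this was a different peak, as the 3 regions scored too low to stay in the list. Its neighbour Lif, a related cytokine gene named here after its values were seen, had a region just upstream of its start site (chr11:4257185-4257385, tag count 44.3, score 40). The nearest peak of another list was 1633 bp from that region. Osm was the only one of 20 fibrosis-linked factors and matrix enzymes with a region (5%, against 6.84% of all genes). Its 3 regions were 2.94% of the 102 Ly6CHi-RM peaks at these genes, near the 2.93% of all genes.

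Chemokine and cytokine receptors had a region at 9 of 20 members (45.0%), against 6.84% of all genes; with 216 Ly6CHi-RM peaks at 20 genes, they are rich in peaks. Their 12 regions were 5.56% (3.21 to 9.46%) of the 216 Ly6CHi-RM peaks at these genes, against 2.93% (2.80 to 3.07%) at all genes. By this share the small stellate, T and NK cell and endothelial lists were higher. The receptor for GM-CSF accounted for several of these, with 2 regions for the alpha chain gene Csf2ra (tag counts 19.3 and 29.2) and 2 for the common beta chain gene Csf2rb (26.6 and 20.3). Ccr1, the receptor for CCL3 and CCL5, had 2 as well (22.4 and 25.0). Cxcr4, the receptor for CXCL12, had 1 (28.1), as did the decoy receptor gene Il1r2 (24.5), Ccr7 (17.7) and both interferon-gamma receptor genes Ifngr1 (18.2) and Ifngr2 (17.7). Ccr2, the receptor that defines these monocytes, had 6 Ly6CHi-RM peaks and none of these regions. Of the 12 regions, 4 were more than 1 kb from the other lists. When every list was shortened to its 34293 best-scored peaks, the receptor genes held 4 regions. These need not be among the 12, as a peak also becomes a region when its overlap in another list is cut. The regions of Csf2ra, Csf2rb, Ccr1 and Cxcr4 scored too low to stay in the shortened list.

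Early response genes, which encode AP-1 and related factors, had a region at 5 of 23 members (21.7%, against 6.84% of all genes). The 10 regions were 3.13% (1.71 to 5.66%) of the 320 peaks there, close to the 2.93% of all genes. Dusp1 held 5, Atf3 held 2 (19.3 and 26.0) and Fosl1 (29.2), Nr4a1 (25.0) and Maff (19.3) 1 each. Fosl1, which encodes the AP-1 subunit Fra-1, had that region as its 1 peak in Ly6CHi-RM, with 1 in Ly6CLo-RM and 0 in the other 4 lists. The count depended on the Ly6CLo-RM list: without the Ly6CLo-RM list these genes would hold 39 regions, and with an overlap of at least 50% of the shorter peak 18. In Ly6CLo-RM itself 12.1% (9.10 to 15.8%) of the 365 peaks at these genes were in no other list, against 7.07% at all genes.

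NF-kB inflammatory genes had a region at 4 of 25 members (16.0%, against 6.84% of all genes). The 6 regions were 3.03% (1.40 to 6.45%) of their 198 peaks, close to the 2.93% of all genes. Il1b, the gene of interleukin-1 beta, held 2 (26.0 and 18.2) and so did the chemokine gene Ccl3 (27.1 and 19.3), followed by Nfkbiz (19.3) and Tnfaip3 (17.7) with 1 each. Besides its regions Ccl3 had 4 peaks in Ly6CHi-RM, and it had 4 each in blood monocytes and Ly6CLo-RM, 3 in KC-H and 2 each in KC-N and KN-RM. Besides the regions, Ly6CHi-RM and KC-H had 8 and 12 peaks at Il1b, 24 and 22 at Nfkbiz, and 21 and 22 at Tnfaip3. All but 1 of the 6 regions had a peak centre of another list within 1 kb. Myeloid transcription factors had a region at 11 of 31 members (35.5%, against 6.84% of all genes). Their 13 regions were 2.62% (1.54 to 4.43%) of the 496 Ly6CHi-RM peaks there, near the 2.93% of all genes. Among these members were Mitf (26.0 and 19.8), Ets2 (18.8 and 19.8), Runx2 (34.4) and Irf2 (27.1).

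Genes of hypoxia and glycolysis had a region at 4 of 18 members (22.2%, against 6.84% of all genes). These were Vegfa (19.8), the hexokinase gene Hk2 (18.8), the oxygen sensor gene Egln3 (21.4) and Ndrg1 (18.2). Vegfa had no KC-H peak, against 7 of Ly6CHi-RM besides the region, 8 of blood monocytes, 6 of Ly6CLo-RM, 3 of KC-N and 2 of KN-RM. KC-H also had fewer peaks than Ly6CHi-RM besides the region at Egln3 (2 and 6) and Ndrg1 (3 and 11), but more at Hk2 (24 and 17). TGF-beta, BMP and Notch genes also had 4 of 18 (22.2%), namely Notch1, Hes1, Smad3 and Tgfbr2. Integrin and adhesion genes had 5 of 19 (26.3%), including Cd44 (30.7), Cd47 (25.0), Alcam (22.9) and Itga1 (20.3). As shares of the Ly6CHi-RM peaks at these 3 lists, the regions were 2.84%, 2.13% and 2.44%, near the 2.93% of all genes.

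Regions were few, in numbers that do not separate from the share of all genes, at the genes of macrophage identity, interferon response, antigen presentation and lipid handling. Kupffer cell identity genes had none of 57 peaks (upper 95% limit 6.31%) and interferon genes none of 74 (upper limit 4.93%). Monocyte genes had 1 of 138 (0.725%, 0.128 to 3.99%), in F13a1, which encodes coagulation factor XIII A. That region (25.0) was 40561 bp from any peak of another list. The monocyte count rested on the blood monocyte list, without which it would be 23. Antigen presentation genes had 1 of 92 at H2-DMa (22.9, 1.09%), whereas 25.4% (18.8 to 33.4%) of the 134 Ly6CLo-RM peaks at these genes were in Ly6CLo-RM alone. The share at all genes also differed between these lists, 2.93% in Ly6CHi-RM and 7.07% in Ly6CLo-RM. Lipid-associated macrophage genes of the Trem2 type had 2 of 129 (Gpnmb and Lgals3, 17.7 each), and LXR and lipid handling genes 2 of 130 (Scd1, 23.4, and Scd2, 24.0). In the plot of gene lists most intervals cross the value of all genes.

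**Figure D5:**
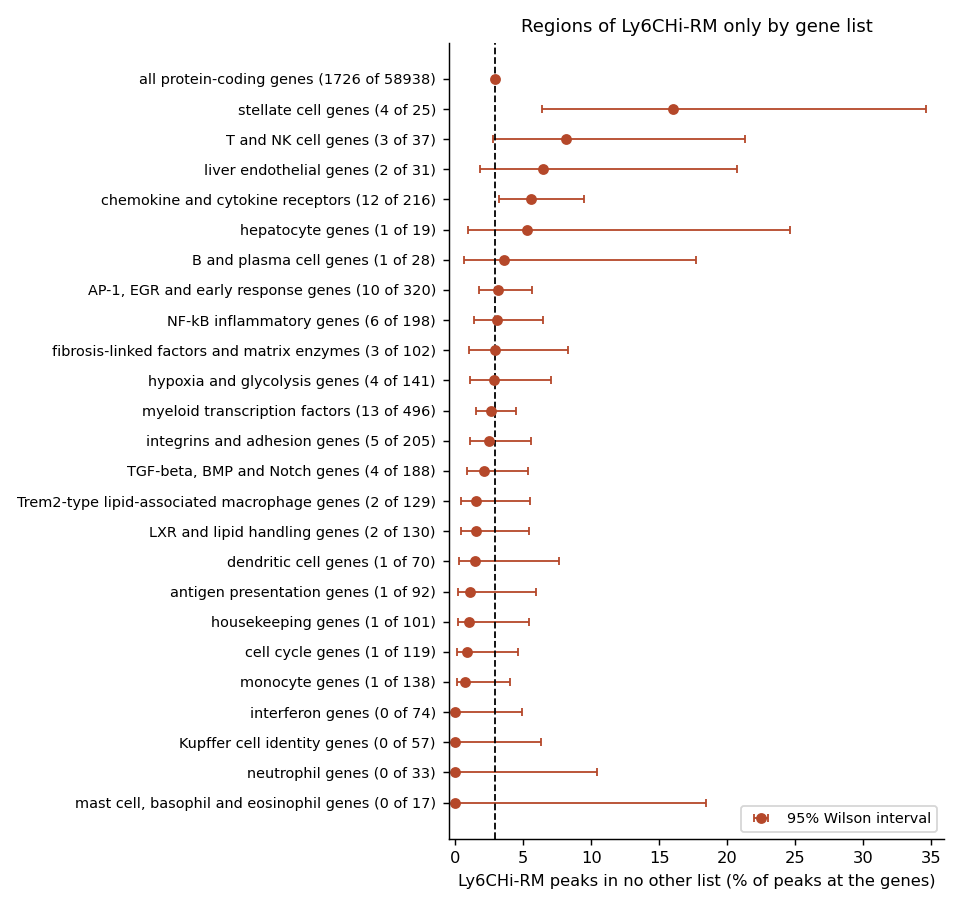
Share of Ly6CHi-RM peaks at the genes of each list that no other list overlaps (x axis, %; counts in brackets), with 95% Wilson intervals (counting error only) and a dashed line at 2.93%, the value for all genes. The stellate cell list has the highest value, from 4 regions at 25 peaks, and 4 lists have 0.

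Lists of other cell types rested on small numbers. Stellate cell genes had 4 regions of 25 peaks (16.0%, 6.40 to 34.7%): Col1a1 (32.3), Acta2 (26.0), Hand2 (19.3) and Pdgfrb (17.7). Their defining markers Lrat, Dcn and Reln had 0 peaks in Ly6CHi-RM, and Col1a1, the collagen I alpha 1 gene, had that region as its 1 Ly6CHi-RM peak, with 3 peaks in blood monocytes and 0 in the other 4 lists. T and NK cell genes had 3 of 37 (8.11%, 2.80 to 21.3%), Gzmb and Klrb1c among them (18.2 each). Of their markers, Gzma had 0 peaks in Ly6CHi-RM, Cd3e 1 and Il7r 2, but Klrb1c had 12. Endothelial genes had 2 of 31 (Erg and Pecam1), B cell genes 1 of 28 (Ms4a1) and hepatocyte genes 1 of 19 (Hnf4a). Dendritic cell genes had 1 of 70 (Tcf4), and neutrophil and mast cell lists 0. The endothelial markers Stab2, Kdr and Pecam1 had 1, 5 and 7 Ly6CHi-RM peaks, and the hepatocyte markers Alb, Apoa1 and Ttr 0, 1 and 2. Cell cycle and housekeeping genes had 1 region each (of 119 and 101 peaks).

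The markers of the sorted populations separated the lists only in part. The 8 monocyte markers had 59 peaks in Ly6CHi-RM, 60 in blood monocytes, 41 in Ly6CLo-RM, and 53, 33 and 26 in KC-H, KC-N and KN-RM, with Ly6c2 at 5 and Ccr2 at 6 in Ly6CHi-RM. The 6 Kupffer cell markers had 16 peaks in Ly6CHi-RM, 19 in blood monocytes, 9 in Ly6CLo-RM, 21 in KN-RM, 34 in KC-N and 87 in KC-H. In Ly6CHi-RM and KC-H, Timd4 had 0 and 17 peaks and Clec4f 1 and 18, but the monocyte markers Plac8 (11 and 18) and Csf1r (8 and 16) were higher in KC-H, and Vsig4 (4 and 5) and Adgre1 (6 and 8) barely differed. The part that other cells in the sort may have in the regions was not tested. The deposited lists carry no library totals, so the depth behind each list is unknown.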

How the data were processed

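ATAC-seq was measured in 12 libraries of 6 groups, and 1 peak list per group was used. Per the labels, liver cells were released by perfusion and enzymatic digestion in the presence of the transcription inhibitor flavopiridol, then sorted. The submitters' processing notes name Bowtie2 and HOMER, without version or role, and the builds mm10 and GRCm38; aligner settings and peak threshold: not given in the sources used here. Each deposited list holds peaks made from both libraries of a group, named for IDR (a test of reproducibility between libraries). The authors give each peak a normalised tag count (signal; scaling not stated) and a whole-number score from their peak calling, with no scale stated in the deposited lists. Both were used only to rank or describe peaks within a list.

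From these, peaks were merged over the 6 lists in Python 3.11.15 with pandas 2.3.3 and numpy 2.4.6. A region went to the protein-coding gene (21883, RefSeq GRCm38.p6) containing its centre, otherwise the nearest within 100 kb. Only promoter sequence was available, so motifs were searched there. The merging was tested on simulated regions. With 1 list per group there is no replicate error: no test was run, and the 95% Wilson intervals (scipy 1.17.1) cover counting error only; neighbouring regions are not independent. The precision that sequencing depth gives is unknown, as the lists hold no library totals. "Low-scored" means the lowest 20% by score.

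The regions, the 24 gene lists and the motifs were chosen with earlier results of these data known. Some listed genes are not reported here. Of listed symbols 2 were not in the gene table. Genes were named by rule: the 10 with most regions, the 10 highest-scored regions (all, and those over 1 kb from other lists), up to 4 genes per list and the cell type markers; genes named beyond it, such as Lif, Sphk1, Ccr7, Il1r2, Ifngr1, Ifngr2, Maff and Clec4d, and the printed promoters were chosen after their values were seen. Alternatives tried were a stricter overlap, merging over gaps, lists of equal length, the better-scored 50%, leaving out each other list, isolated regions only, other distances, and, added after the data were seen, listed start sites and other promoter stretches.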

Additional observations from a re-analysis of the deposited data

How the results depend on the processing

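The number of regions was 1669 to 2211 under 7 alternatives and moved by more than 1.5 times under 5: 964 with all lists shortened to equal length, 28 in the better-scored 50%, 7995 without the Blood-Ly6CHi-NASH list, 3193 without the Ly6CLo-RM list and 1144 when only isolated regions were kept. Under the same 5 settings the number of genes became 830, 27, 4715, 2346 and 989. The share within 1 kb of a gene end, 10.2% as reported, was 32.1% in the better-scored 50%, 13.7% without KC-H, 11.8% without Ly6CLo-RM and 4.63% for isolated regions; it was 6.16% at 500 bp and 20.5% at 2500 bp. The share with another list's centre within 1000 bp, 37.1% as reported, was 41.3% with an overlap of 50%, 31.5% when gaps of up to 100 bp were merged, 24.6% at equal length, 67.9% in the better-scored 50%, 19.8% without the blood list and 40.0% without KC-H. The median score percentile, 10.4 as reported, was 56.6 in the better-scored 50%, 15.7 without the blood list, 13.2 without Ly6CLo-RM and 9.46 for isolated regions. These values change by construction with fewer or shorter lists, another rule or distance, or a cut of the regions or the Ly6CHi-RM list. In the better-scored 50% the median percentile, taken in the full list, must lie above 50. Other causes were not tested. The AP-1 share was 25.0% over 300 bases around the start site and 17.1% over the 41 promoters sharing 1 bp or more with a region. Leaving out a replicate was not run, because each list was made from both libraries of its group. No paired analysis was possible because the lists hold no values per library.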
